A study of Caenorhabditis elegans with 9 samples.

Results

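The mitochondrial ribosomal protein genes of the nematode Caenorhabditis elegans were followed in embryos that lacked most of the messenger of the SUMO gene smo-1 and in embryos mutant for sdc-2. Members were all genes whose symbol begins with mrpl- (large subunit) or mrps- (small subunit) and that had a probe set annotated to 1 gene alone, and each gene was read by its brightest such probe set. This rule gave 59 genes, 34 of the large and 25 of the small subunit, of 71 genes with such symbols in RefSeq and of 17118 genes on the array. The other 12 genes were not measured here: mrpl-13 and mrpl-58 were read by a probe set shared with another gene, and mrpl-21, mrpl-36, mrpl-39, mrpl-42, mrpl-46, mrpl-53, mrps-7, mrps-18A, mrps-24 and mrps-30 were matched to none. None of the 59 lies on the X chromosome, so each measured member is an autosomal gene.

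Mitochondria keep ribosomes of their own, which translate only the few messengers of mitochondrial DNA, for subunits of the respiratory chain and ATP synthase. The proteins of these ribosomes are encoded in the nucleus, made in the cytosol and imported. In worms, loss of mitochondrial ribosomal proteins such as MRPS-5 is known to lengthen life and to induce the mitochondrial unfolded protein response, a transcriptional program of mitochondrial chaperones and proteases.

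Total RNA of mixed-stage embryos from XX hermaphrodites was measured on 9 Affymetrix arrays, 3 in each of 3 groups. Mothers of the control embryos were wild-type N2 worms kept for 96 hours on L4440, the empty RNAi vector. For smo-1 RNAi (smo-1 embryos below), N2 mothers had HB101 food for 24 hours and were then fed smo-1 RNAi bacteria for 72 hours. For sdc-2(y93)+RNAi (sdc-2 embryos below), mothers with the sdc-2 allele y93 followed that schedule on sdc-2 RNAi bacteria. All were kept at 20 °C. SDC-2 recruits the dosage compensation complex, which turns down both X chromosomes in hermaphrodites. Control mothers thus differed from both other groups in their time on RNAi bacteria as well as in the target, and the sdc-2 group combined an allele with RNAi.

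Values are log2 levels made by the authors with RMA, a method that corrects background, normalises arrays and summarises probes per probe set. The deposited arrays still differed in their median over probe sets. Its mean differed from that of control by 0.136 on smo-1 arrays and by -0.038 on sdc-2 arrays. Counts with the arrays centred are therefore given below. A difference of 1 is a 2-fold change, and a shift of all transcripts together cannot be seen. A gene was called when its adjusted p from limma, over all 17118 genes, was under 0.05. Whether replicates were separate cultures is not in the labels, so these p-values measure the spread between samples that may be technical. In whole embryos, fewer cells of a type and less messenger per cell cannot be told apart. The messenger of smo-1 was lower by 3.67 in smo-1 embryos and by 1.05 in sdc-2 embryos, where her-1, a gene that SDC-2 represses, was higher by 2.48. The messenger of sdc-2 itself was 0.35 below control there, which did not pass (limma adjusted p = 0.14). Replicate 2 of sdc-2 stood furthest from its group, with correlations down to 0.984 against at least 0.993 within the other groups, so results of that group are also given without it. Hybridisation controls had strong signal on the sdc-2 arrays alone, where the cre control was 7.87 above its control-array level, so the handling of these arrays and the group cannot be told apart. Actin's 3' probe set over its 5' one, a sign of RNA integrity or labelling, was 0.66 above control on smo-1 arrays and 0.81 above it on sdc-2 arrays (log2). The same ratio of ubiquitin was 0.32 and 0.34 above control, that of Gapdh differed by -0.26 and 0.52, and that of catalase by 0.86 and -0.08. The part of these ratios in the results below was not tested.

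In sdc-2 embryos 46 of 59 mitochondrial ribosomal protein genes were lower than in control, which is 78.0% of them. The background was 15.6% of all genes called lower, and 32.7% of the 7152 autosomal genes with a mean level over 6.65, the median of all genes. These are called well-expressed autosomal genes here, and 56 of the 59 members are among them. The median log2 difference of the 59 genes was -0.58, a 1.49-fold lower level, against 0.02 over all genes and -0.18 over those autosomal genes. The number of members higher was 0 by limma's adjusted p, against 10.9% of all genes and 12.6% of well-expressed autosomal genes, and also 0 at an unadjusted p under 0.05, where 50 were lower. Of the 59 fitted differences 58 were negative, against 4693 of the 7152 well-expressed autosomal genes. Called falls over 2-fold numbered 11 among members, against 331 of those 7152 genes. The arrays of the sdc-2 group lay wholly below those of control for 51 members, against 21% of all genes, and wholly above them for 0, against 16.7%. Array by array, the median member lay 0.57, 0.74 and 0.51 below its control mean in sdc-2 replicates 1, 2 and 3. Without replicate 2 of the group 41 members were lower, with a median of -0.52. When arrays were instead centred on their well-expressed autosomal genes, a setting added once the data had been seen, 34 members were lower, 1 was higher and the median was -0.31. This centring shifts every gene alike, and under it the median of all genes was 0.28, with 8.65% lower and 40.3% higher.

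For smo-1 embryos 31 of 59 members, or 52.5%, were lower and 2 were higher. The background was 22.2% of all genes called lower and 17.8% called higher, and among well-expressed autosomal genes 42.1% and 18.3%. The median member differed by -0.29, a 1.22-fold lower level, against -0.24 over those autosomal genes. The share of members lower in smo-1 embryos thus lay above that of all genes and, by less, above that of well-expressed autosomal genes. The 59 include members below the level cut of that background. With only genes above the median level fitted, 31 of 56 members were lower and 3 higher. Of all 8559 such genes, X-linked ones included, 39.6% were lower and 23.3% higher. The median of these 56 members was -0.35, against -0.24 over well-expressed autosomal genes. Members ranged from -1.46 to 0.67, with quartiles of -0.62 and -0.14, against quartiles of -0.62 and 0.17 over well-expressed autosomal genes. Called falls over 2-fold numbered 5 among members, against 659 of the 7152 well-expressed autosomal genes. The smo-1 arrays lay wholly below control for 38 members, against 29.3% of all genes, and wholly above it for 4, against 25.8%. Array by array, the median member lay 0.41, 0.29 and 0.36 below its control mean in smo-1 replicates 1, 2 and 3. Under that same centring 22 members were lower, 8 were higher and the median was -0.09, while the median of all genes was 0.20, with 14.6% lower and 29% higher.

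**Figure D1:**
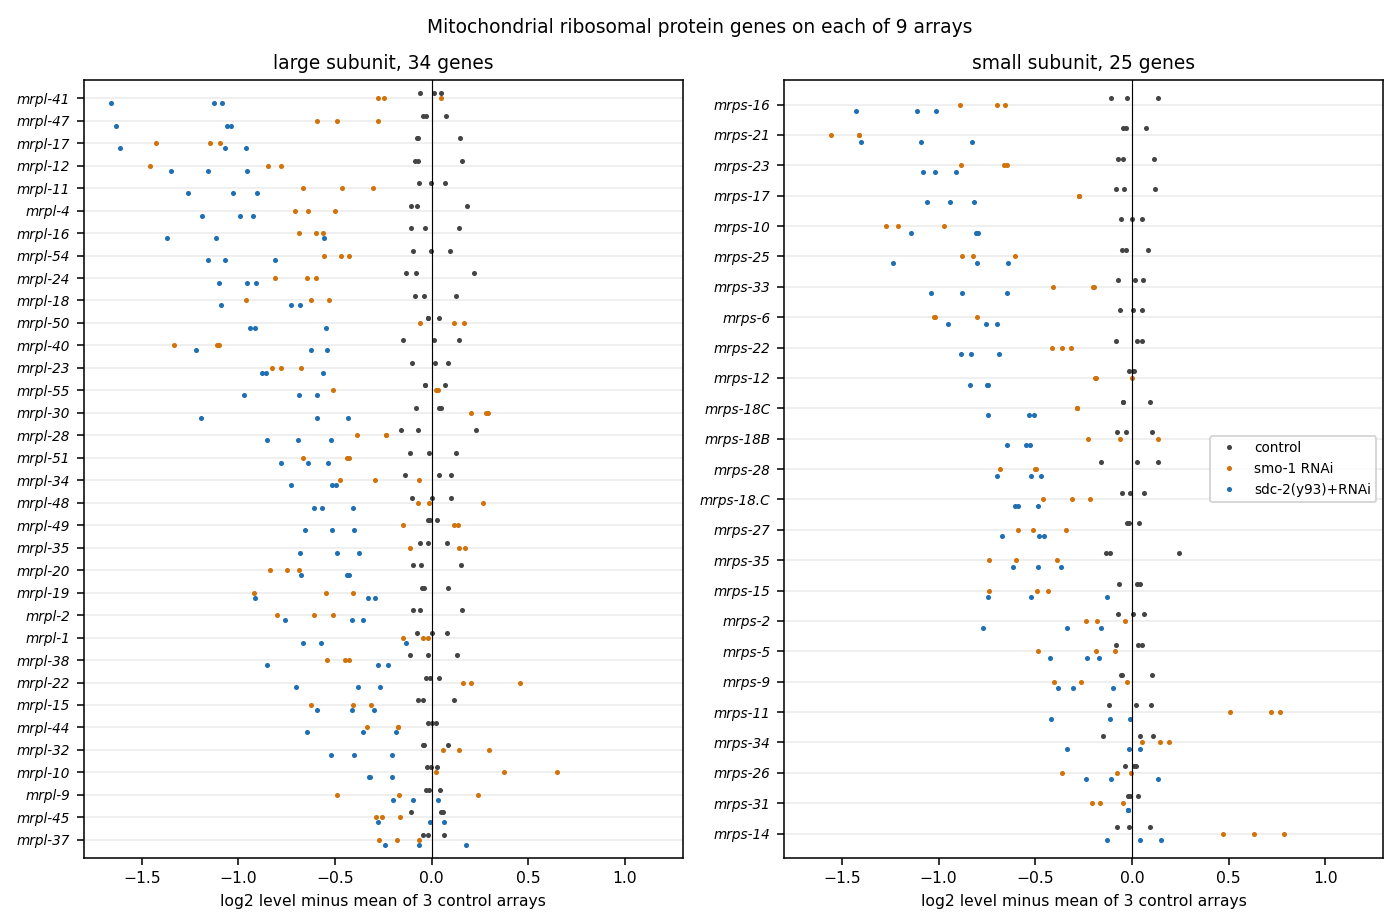
Each row is a member and each dot an array, placed by its log2 level minus the mean of the 3 control arrays (horizontal axis), with black for control, orange for smo-1 and blue for sdc-2. Blue dots lie left of the control dots for most rows, down to the mrpl-41 and mrps-16 rows at the top, while orange dots fall on both sides of 0 and reach furthest right for mrps-11 and mrps-14.

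The pair of perturbations was then compared directly, which needs no control array. Of the 59 members 25 were higher in smo-1 than in sdc-2 embryos, or 42.4%, against 18.4% of all genes and 25.5% of well-expressed autosomal genes. The number lower was 0 by limma's adjusted p, against 17.2% of all genes and 28.7% of those autosomal genes, and 3 at an unadjusted p under 0.05. The median difference was 0.27, against -0.01 over all genes. The smo-1 arrays lay wholly above the sdc-2 arrays for 29 members, against 21.7% of all genes, and wholly below them for 3, against 21.2%. In a fit to only the 6 arrays compared, 23 of the 25 members higher were called again. Without sdc-2 replicate 2 there were 23 higher and 5 lower. With centring on all autosomal genes there were 20 higher and 8 lower and the median was 0.07, while the median of all genes moved to -0.21, with 13.1% of them higher and 37.4% lower.

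**Figure D2:**
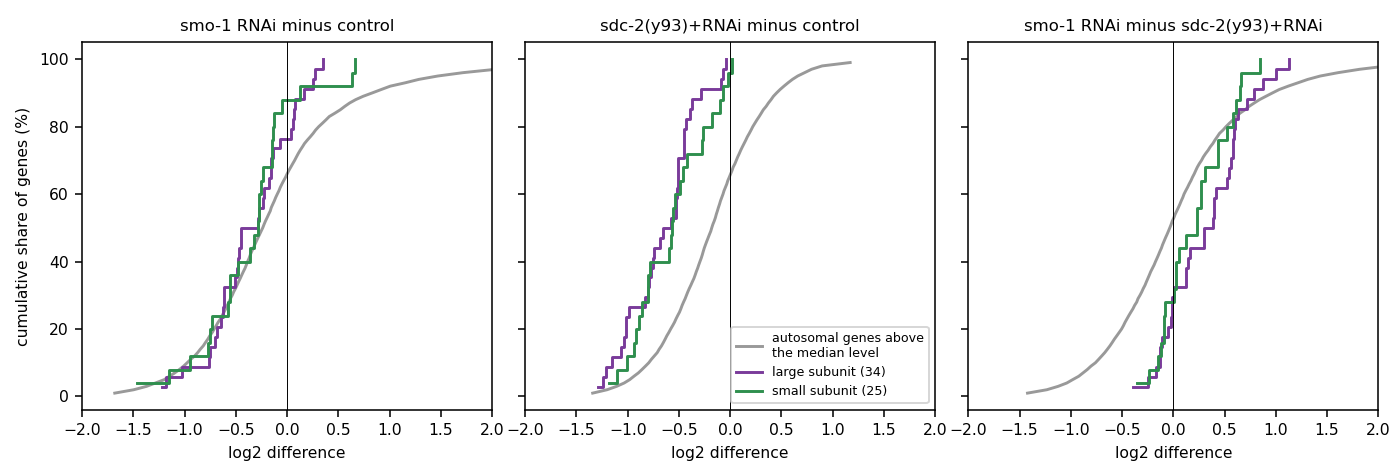
Cumulative share of genes (vertical axis, %) by log2 difference (horizontal axis) in the 3 comparisons, for large subunit members (purple, 34), small subunit members (green, 25) and well-expressed autosomal genes (grey). The member curves lie to the left of the grey curve for sdc-2 against control, run close to its lower part for smo-1 against control, and lie to its right in the direct comparison except near the top.

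Both subunits held members called lower. The counts below stand beside 32.7% of well-expressed autosomal genes lower in sdc-2 and 42.1% in smo-1 embryos, or 15.6% and 22.2% of all genes. In sdc-2 embryos 28 of 34 large subunit genes fell (median -0.62) and 18 of 25 small subunit genes fell (median -0.56). The counts in smo-1 embryos were 17 large subunit genes lower (50%, median -0.37), and 14 small subunit genes lower (56%) and 2 higher (median -0.28). These shares lay nearer to that of well-expressed autosomal genes than to that of all genes. By human naming, 39 members have a counterpart in bacterial ribosomes and 20 were added in mitochondria. Of the former 32 fell in sdc-2 embryos (median -0.58) and 22 in smo-1 embryos (-0.33), and of the latter 14 (-0.53) and 9 (-0.25). The members' places on chromosomes I to V showed no exception in the sdc-2 group, with 10 of 13, 8 of 11, 14 of 19, 7 of 7 and 7 of 9 members lower in that order. Of the genes of each chromosome above the median level 33.6%, 33.2%, 35.2%, 30% and 31.5% were lower in that group. In smo-1 embryos the members' counts in the same order were 11, 4, 9, 4 and 3, against 43.7%, 43.7%, 42.9%, 39.5% and 40.4% of those genes. The members' medians there were -0.49, -0.17, -0.24, -0.51 and -0.15 on chromosomes I to V. Over the genes of each chromosome above the median level they were -0.26, -0.27, -0.26, -0.20 and -0.20. Members thus stood lower on chromosomes I and IV and slightly higher on II and V. On chromosome III only 16 of 19 members lay above the median level, and the members' median was the value of mrpl-45, which lay below that level. No direction is read for chromosome III. No difference between subunits, origins or chromosomes was tested.

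Members are described by their place in the ribosome, and mrpl-10, mrpl-11, mrpl-22, mrpl-32, mrps-2 and mrps-12 were added to those the naming rule gives after their values were seen. The stalk of the large subunit and its base, which draw translation factors to the ribosome, are represented by mrpl-12, mrpl-11 and mrpl-10. The log2 level of mrpl-12, the stalk protein itself, was 9.14, 9.13 and 9.38 in control, 7.76, 8.37 and 8.44 in smo-1, and 8.26, 7.87 and 8.06 in sdc-2 embryos. All 6 perturbed arrays of mrpl-12 lay below all control arrays. It fell by 1.03 ± 0.17 (log2, SE, limma adjusted p = 0.000768) in smo-1 and by 1.15 ± 0.17 (limma adjusted p = 0.000747) in sdc-2 embryos. For mrpl-11, at the base, the differences were -0.48 ± 0.12 and -1.06 ± 0.12, both past the threshold, and smo-1 was higher than sdc-2 by 0.59 ± 0.12 (limma adjusted p = 0.00285). The third of these genes, mrpl-10, did not pass in either comparison with control, at 0.35 ± 0.14 and -0.28 ± 0.14, yet the perturbed groups differed by 0.63 ± 0.14 (limma adjusted p = 0.00398).

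At the exit of the tunnel through which new peptides leave sit the products of mrpl-17, mrpl-22, mrpl-23, mrpl-24, mrpl-32 and mrpl-47, placed by their bacterial counterparts. All 6 genes fell in sdc-2 embryos, with a median of -0.88, and 4 fell in smo-1 embryos. Of all 59 members 78.0% and 52.5% fell in that order. The background was 15.6% and 22.2% of all genes and 32.7% and 42.1% of well-expressed autosomal genes. Whether these 6 differ from other members was not tested. The level of mrpl-17 was 9.35, 9.35 and 9.57 in control, 8.00, 8.33 and 8.28 in smo-1, and 8.46, 7.81 and 8.35 in sdc-2 embryos. It fell by 1.22 ± 0.16 in each (limma adjusted p = 0.000154 and 0.000388), and the 2 perturbed groups overlapped, with a difference of -0.01 and a 95% interval from -0.37 to 0.36. For mrpl-47 the levels were 9.86, 9.88 and 9.98 in control, 9.31, 9.63 and 9.42 in smo-1, and 8.87, 8.28 and 8.85 in sdc-2 embryos. The 3 groups of mrpl-47 did not overlap, with falls of 0.45 ± 0.15 (limma adjusted p = 0.037) and 1.24 ± 0.15 (limma adjusted p = 0.000231), and smo-1 was higher than sdc-2 by 0.79 ± 0.15 (limma adjusted p = 0.0021). The genes mrpl-22 and mrpl-32 did not pass in smo-1 embryos, at 0.27 and 0.17, and fell by 0.45 and 0.38 in sdc-2 embryos.

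Other large subunit genes showed the contrast between the perturbations most plainly. The largest fall of any member in sdc-2 embryos was that of mrpl-41, a mitochondrial addition to the subunit, at 2.44-fold. Its levels were 9.44, 9.55 and 9.52 in control, 9.23, 9.55 and 9.26 in smo-1, and 8.42, 7.84 and 8.38 in sdc-2 embryos. The sdc-2 arrays of mrpl-41 lay below all the others while those of smo-1 overlapped control, with differences of -1.29 ± 0.15 (limma adjusted p = 0.000181) and -0.16 ± 0.15 (limma adjusted p = 0.482). The perturbed groups differed by 1.13 ± 0.15 for mrpl-41 (limma adjusted p = 0.000193), the largest direct difference among members. Also mitochondria-specific, mrpl-50 stood at 10.24, 10.30 and 10.24 in control, 10.20, 10.43 and 10.37 in smo-1, and 9.32, 9.34 and 9.71 in sdc-2 embryos. It did not pass in smo-1 embryos, at 0.07 ± 0.12, and fell by 0.80 ± 0.12 in sdc-2 embryos (limma adjusted p = 0.000585). The gene mrpl-30 had the same order, with 0.26 ± 0.16, which did not pass, and -0.74 ± 0.16 (limma adjusted p = 0.00659), but its probe set can bind related transcripts.

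The mitochondria-specific gene mrpl-40 was lower in smo-1 than in sdc-2 embryos by its means. Its levels were 10.15, 9.99 and 10.28 in control, 9.04, 9.03 and 8.80 in smo-1, and 9.60, 8.92 and 9.51 in sdc-2 embryos. Replicate 2 of the sdc-2 group lay among the smo-1 arrays, and the direct difference of -0.39 ± 0.17 did not pass (limma adjusted p = 0.0995). Against control mrpl-40 fell by 1.18 ± 0.17 in smo-1 embryos (limma adjusted p = 0.000207) and by 0.80 ± 0.17 in sdc-2 embryos (limma adjusted p = 0.00477).

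Among small subunit genes the largest fall in smo-1 embryos was that of mrps-21, counterpart of a bacterial ribosomal protein, at 2.75-fold. Its levels were 8.42, 8.44 and 8.54 in control, 6.91, 7.05 and 7.06 in smo-1, and 7.37, 7.06 and 7.64 in sdc-2 embryos. Every perturbed array of mrps-21 was below every control array, and the falls were 1.46 ± 0.13 (limma adjusted p = 9.24e-06) and 1.11 ± 0.13 (limma adjusted p = 0.00019). Next, by the probe sets used, came mrps-10, a protein of the head of the small subunit, with falls of 1.15 ± 0.12 and 0.92 ± 0.12. After it came mrps-6, a protein of the platform of the small subunit, with falls of 0.95 ± 0.10 and 0.80 ± 0.10. A second probe set of mrps-28 gave larger falls than either, as described below. For mrps-21, mrps-10 and mrps-6 the direct difference between smo-1 and sdc-2 did not pass, at -0.35, -0.24 and -0.15. With the probe sets used, the largest fall of a small subunit gene in sdc-2 embryos was that of mrps-16, whose probe set may also bind related transcripts, from 8.38, 8.30 and 8.54 in control to 7.40, 6.98 and 7.30, or 1.18 ± 0.12 (limma adjusted p = 9.31e-05). With the mean of its probe sets mrps-16 was at -0.94, above the -1.11 of mrps-21, and with its single-transcript probe set it was at -0.70 and did not pass. The smo-1 arrays of mrps-16 stood at 7.52, 7.71 and 7.75, a fall of 0.75 ± 0.12 (limma adjusted p = 0.000613). The decoding centre protein gene mrps-12 was at 10.22, 10.22 and 10.20 in control, 10.21, 10.03 and 10.02 in smo-1, and 9.46, 9.38 and 9.47 in sdc-2 embryos. It fell by 0.78 ± 0.09 in the sdc-2 group (limma adjusted p = 0.000118) and did not pass in smo-1 embryos (-0.12 ± 0.09).

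**Figure D3:**
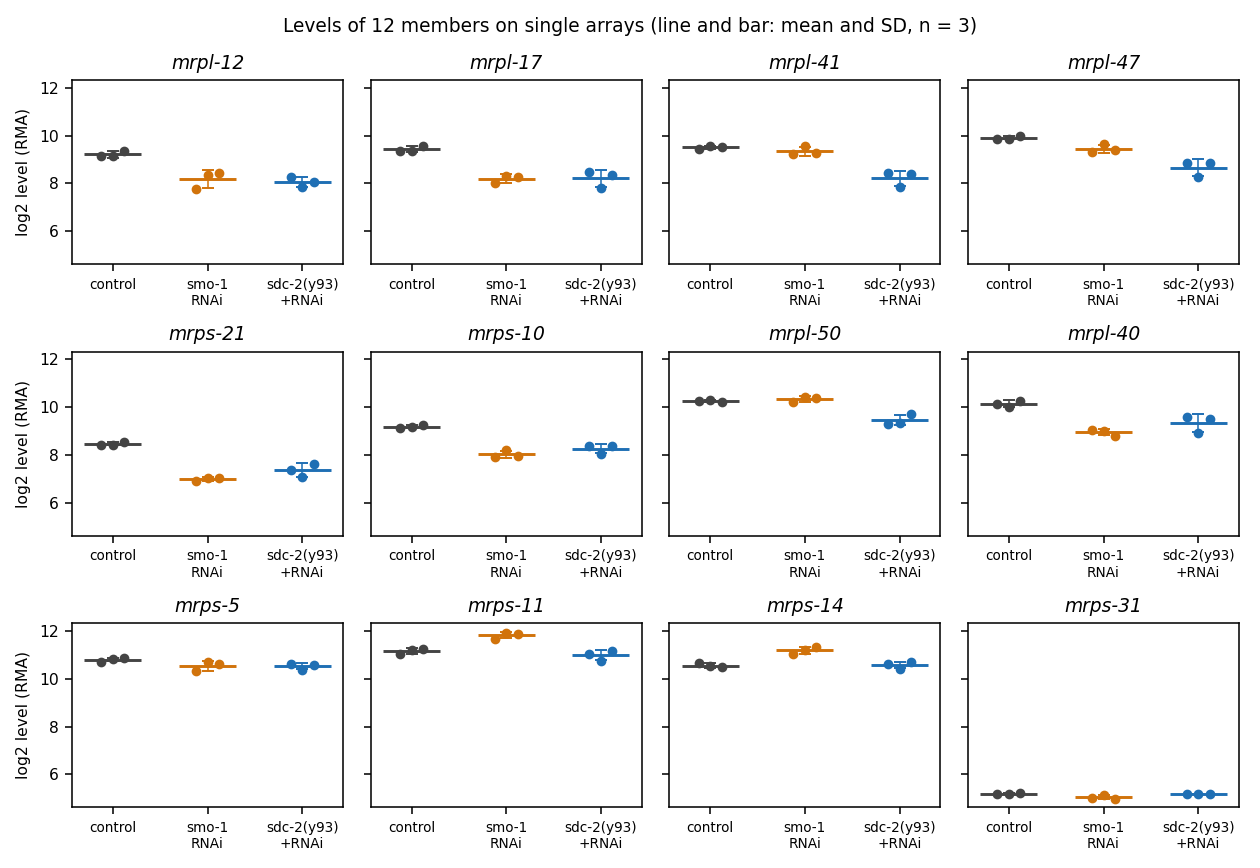
Log2 levels (vertical axis, RMA) of 12 members on each of 9 arrays, with the mean and SD of each group of 3. Falls in both perturbed groups are seen for mrpl-12, mrpl-17, mrps-21, mrps-10 and mrpl-40, falls deeper in sdc-2 for mrpl-41, mrpl-47 and mrpl-50, and rises in smo-1 for mrps-11 and mrps-14.

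Only mrps-11 and mrps-14, both of the small subunit and both with bacterial counterparts, rose in smo-1 embryos. Levels of mrps-11 were 11.04, 11.19 and 11.26 in control, 11.67, 11.93 and 11.89 in smo-1, and 11.05, 10.74 and 11.15 in sdc-2 embryos. Levels of mrps-14 were 10.65, 10.54 and 10.48 in control, 11.03, 11.19 and 11.34 in smo-1, and 10.60, 10.43 and 10.71 in sdc-2 embryos. For both genes all smo-1 arrays lay above all others, with rises of 0.67 ± 0.12 (limma adjusted p = 0.00132) and 0.63 ± 0.11 (limma adjusted p = 0.000915) over control. In sdc-2 embryos neither passed, at -0.18 ± 0.12 for mrps-11 and 0.02 ± 0.11 for mrps-14. Each of these 2 genes was read by a single probe set, which may also bind related transcripts. Of the 13 members read that way 5 fell and 2 rose in smo-1 embryos and 6 fell in sdc-2 embryos. Of the 46 read by the single-transcript kind 26 and 40 fell. Among well-expressed autosomal genes 42.1% were lower and 18.3% higher in smo-1 embryos, and 32.7% lower in sdc-2 embryos. Over all genes these shares were 22.2%, 17.8% and 15.6%.

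The family of mrps-18 paralogs was measured for 3 genes. Against control, sdc-2 embryos were lower in all 3: mrps-18.C fell by 0.56 ± 0.09, mrps-18B by 0.58 ± 0.11 and mrps-18C by 0.59 ± 0.09 (limma adjusted p = 0.0011, 0.00229 and 0.000803). In smo-1 embryos mrps-18.C and mrps-18C fell by 0.33 ± 0.09 and 0.28 ± 0.09 (limma adjusted p = 0.014 and 0.029), while mrps-18B was at -0.05 ± 0.11. The value of mrps-18C was the same, 9.5936, on all 3 smo-1 arrays (SD 0), a tie that enters its fitted spread and so both of its smo-1 comparisons. The mrps-18C call did not survive leaving out any 1 of 5 arrays, nor the mrps-18.C call either of 2, with limma adjusted p between 0.0573 and 0.121. The direct difference passed for mrps-18B and mrps-18C, where smo-1 was higher by 0.52 ± 0.11 and 0.31 ± 0.09 (limma adjusted p = 0.00264 and 0.0211).

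Levels of mrps-5, the gene best known from studies of lifespan, were 10.72, 10.84 and 10.86 in control, 10.32, 10.72 and 10.62 in smo-1, and 10.64, 10.38 and 10.57 in sdc-2 embryos. Replicate 2 of smo-1 lay level with the lowest control array of mrps-5, and the differences of -0.25 ± 0.12 and -0.28 ± 0.12 did not pass (limma adjusted p = 0.122 and 0.123). The 95% intervals, unadjusted, ran from -0.51 to 0.01 and from -0.54 to -0.01. The 4 members with the smallest differences, by the larger of their 2 differences from control, were mrps-34, mrps-31, mrpl-9 and mrps-26, none past the threshold. Of these mrps-31 (mean 5.19 in control) and mrps-26 (6.59), and also mrpl-45 (5.19), lay at or below the median level of all genes, 6.65. By contrast mrpl-9 and mrps-34 were well above the median level, and mrpl-9 varied from 9.59 to 10.32 among smo-1 arrays.

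Several probe sets were available for 5 members, and for mrpl-4, mrpl-44 and mrps-16 they disagreed in call. The brighter probe set of mrpl-4 gave -0.61 ± 0.11 in smo-1 and -1.03 ± 0.11 in sdc-2 embryos, and the other, which may also bind related transcripts, gave 0.00 ± 0.12 and -0.32 ± 0.12. The fall of mrpl-44 in sdc-2 embryos (-0.40 ± 0.12, limma adjusted p = 0.0281) was not seen with its other probe sets, at 0.02 ± 0.12 and -0.02 ± 0.22. For mrps-16 the second probe set gave -1.16 ± 0.24 and -0.70 ± 0.24, the latter not past the threshold over all probe sets (limma adjusted p = 0.0538). Both probe sets of mrps-28 passed but differed in size. The brighter one, which can bind related transcripts, gave -0.56 ± 0.11 in each perturbed group. The other, of the single-transcript kind, gave -1.42 ± 0.14 in smo-1 and -1.15 ± 0.14 in sdc-2 embryos. The gene next to mrpl-4 on chromosome V is mrps-2, the only case of members that are direct neighbours among protein-coding genes. It was at -0.15 ± 0.14 in smo-1 embryos and fell by 0.42 ± 0.14 in sdc-2 embryos, just inside the threshold (limma adjusted p = 0.0494).

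Members are short genes, and gene span moved with the result in sdc-2 embryos. The median span of the members, introns included, was 1129 bases in assembly WBcel235, against 2567 bases over well-expressed autosomal genes, and 50 of 59 members were shorter than that. Those autosomal genes were split into 4 classes of equal size by span. In the shortest class 46.5% were lower in sdc-2 embryos with a median of -0.34, against 28.8%, 26.6% and 29.1% and medians of -0.15, -0.12 and -0.11 in the other classes. Of the 35 members in the shortest class 31 fell, with a median of -0.78, and of the 14 in the second class 10 fell, with a median of -0.51. For smo-1 embryos span made little difference to the background, with 43.0%, 42.8%, 41.8% and 40.9% lower from the shortest to the longest class, and the members' medians were -0.29 and -0.42 in the shortest and second classes. In the direct comparison 34.7%, 25.5%, 22.5% and 19.1% of genes were higher in smo-1 than in sdc-2 embryos, from the shortest to the longest class. The members' medians there were 0.40 and 0.18 in the shortest and second classes, against 0.15 and -0.05 over all genes of these classes. The third and the longest class held 3 and 4 members. The part of span in the members' differences was not tested beyond these values. By level the members in sdc-2 embryos stood below the genes of their class as well. In the third of 4 equal classes of level 24 of 29 members fell (median -0.56) against 35.7% of genes (-0.21), and in the fourth 7 of 11 (-0.43) against 31.3% (-0.08). In smo-1 embryos 12 of 14 members in the second class of level fell against 45.6% of genes, 15 of 29 in the third against 48.8% and 2 of 11 in the fourth against 41.2%.

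**Figure D4:**
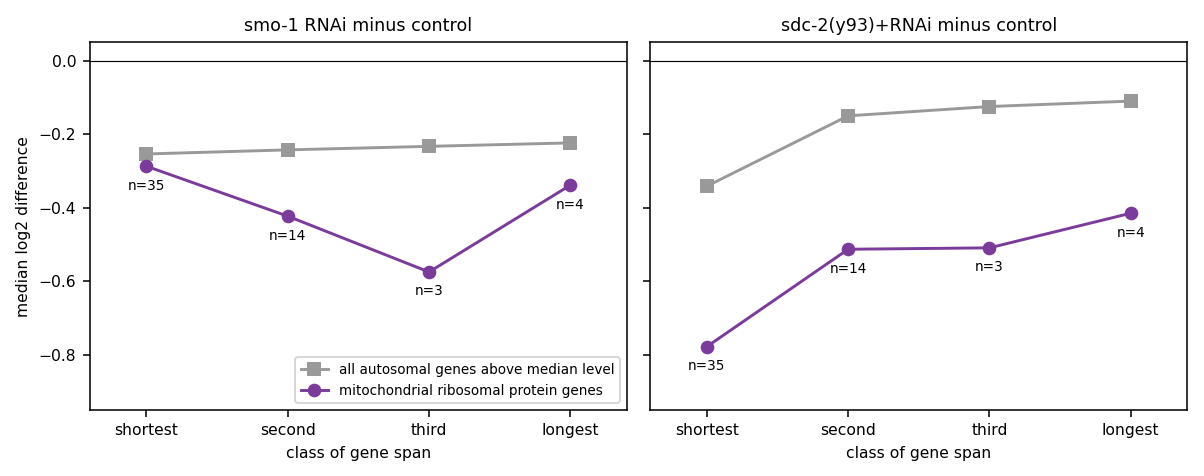
Median log2 difference from control (vertical axis) in 4 classes of gene span (horizontal axis) for members (purple, number beside each point) and for all well-expressed autosomal genes (grey). For sdc-2 embryos both lines are lowest in the shortest class, at -0.78 and -0.34, and the third and longest classes rest on 3 and 4 members.

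Embryo age markers moved with the smo-1 group. Of 16 markers of differentiated tissues 10 were higher and 3 lower in smo-1 embryos, and their mean log2 level per array was 10.36 to 10.46 against 9.51 to 9.81 in control and 9.49 to 9.59 in sdc-2 embryos. Of 15 early and maternal markers 9 were lower and 2 higher in smo-1 embryos, with means of 8.95 to 9.15 against 9.43 to 9.67 in control. In sdc-2 embryos 5 of these maternal markers were higher and 1 lower (9.66 to 10.06), and 1 of the differentiated tissue markers was higher and 4 lower. Of 9 genes of early embryonic transcription, which mark the samples as embryos, 5 were lower and 0 higher in smo-1 embryos by limma's adjusted p and at an unadjusted p under 0.05, with means of 7.02 to 7.27 against 7.85 to 8.14 in control. For sdc-2 embryos 1 of these 9 was higher and 1 lower (7.82 to 8.16). Markers of adult bodies and yolk and of sperm, 6 each, stayed low in all groups, with means of 5.70 to 6.02 and 5.58 to 5.87, and 0 were called by limma in either comparison, also at an unadjusted p under 0.05. The part of embryo age in the members' differences was not tested.

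Other genes that serve mitochondria were counted in lists, and no difference between lists was tested. Their counts stand beside a background, over well-expressed autosomal genes, of 32.7% lower and 12.6% higher in sdc-2 embryos and of 42.1% and 18.3% in smo-1 embryos. Genes named from them for a known role and not for their p-value (tfbm-1, hsp-6, hsp-60 and dve-1) were chosen after their values were seen. Of 34 listed translation factors, assembly factors and tRNA synthetases 25 were measured. Of these 25, 10 fell in sdc-2 embryos (median -0.32) and 11 in smo-1 embryos (median -0.28), which is 40% and 44% of those measured. The elongation factor gene gfm-1 changed by 0.13 ± 0.10 in smo-1 embryos, which did not pass, and fell by 0.81 in sdc-2 embryos (limma adjusted p = 0.00029). The gene dap-3, whose product is a GTP-binding protein of the small subunit under another name, had the same order, at -0.01 ± 0.12 and a fall of 0.87 ± 0.12 (limma adjusted p = 0.000354). The ribosome recycling factor gene mrrf-1 fell by 0.30 and 0.71. Of 6 genes for upkeep and transcription of mitochondrial DNA, of 7 listed, 4 fell and 1 rose in smo-1 embryos and 2 fell and 1 rose in sdc-2 embryos, with medians of -0.56 and -0.31. The riser in both was twnk-1, the X-linked gene of the mitochondrial DNA helicase, by 1.55 and 0.46. The single-stranded DNA binding protein gene mtss-1 fell by 0.55 and 0.57, and tfbm-1 fell by 0.66 in smo-1 embryos.

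Of the messengers that mitochondrial ribosomes translate none was called lower by limma, and 0 had an unadjusted p under 0.05 in that direction. Of 8 measured genes of mitochondrial DNA, of 12 listed, 2 rose in smo-1 embryos and 1 in sdc-2 embryos, with medians of 0.13 and 0.22. The cytochrome oxidase subunit genes COX3 and COX1 rose by 0.43 ± 0.08 and 0.32 ± 0.09 in smo-1 embryos (limma adjusted p = 0.00139 and 0.0184), and COX1 rose by 0.44 ± 0.09 in sdc-2 embryos (limma adjusted p = 0.00541). The ATP synthase subunit gene ATP6 was at 0.38 and 0.04, neither past the threshold. How far the labelling of these transcripts follows that of nuclear messengers was not tested.

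Nuclear genes for the respiratory chain and ATP synthase, whose products assemble with those of mitochondrial DNA, fell for 37 of 67 in sdc-2 embryos (4 rose, median -0.42) and for 22 in smo-1 embryos (7 rose, median -0.15). The complex I subunit gene nduv-3 fell by 1.14 and 0.95 in that order, while the X-linked complex II gene sdha-1 rose by 0.84 and 0.74. Mitochondrial import genes fell for 11 of 18, of 19 listed, in sdc-2 embryos (1 rose, median -0.63) and for 12 in smo-1 embryos (1 rose, median -0.45). The outer membrane translocase gene tomm-7 fell by 1.12 and 0.67. The 75 cytosolic ribosomal protein genes fell for 37 in sdc-2 embryos, with a median of -0.28, and for 6 in smo-1 embryos, where 3 rose and the median was -0.02. In the direct comparison 37 of these 75 were higher in smo-1 than in sdc-2 embryos and 1 was lower (median 0.25). Among well-expressed autosomal genes 25.5% were higher and 28.7% lower in that comparison. Many of the cytosolic ribosomal protein genes stand near the top of the array's range, at means of 12.84 to 13.24 per array.

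**Figure D5:**
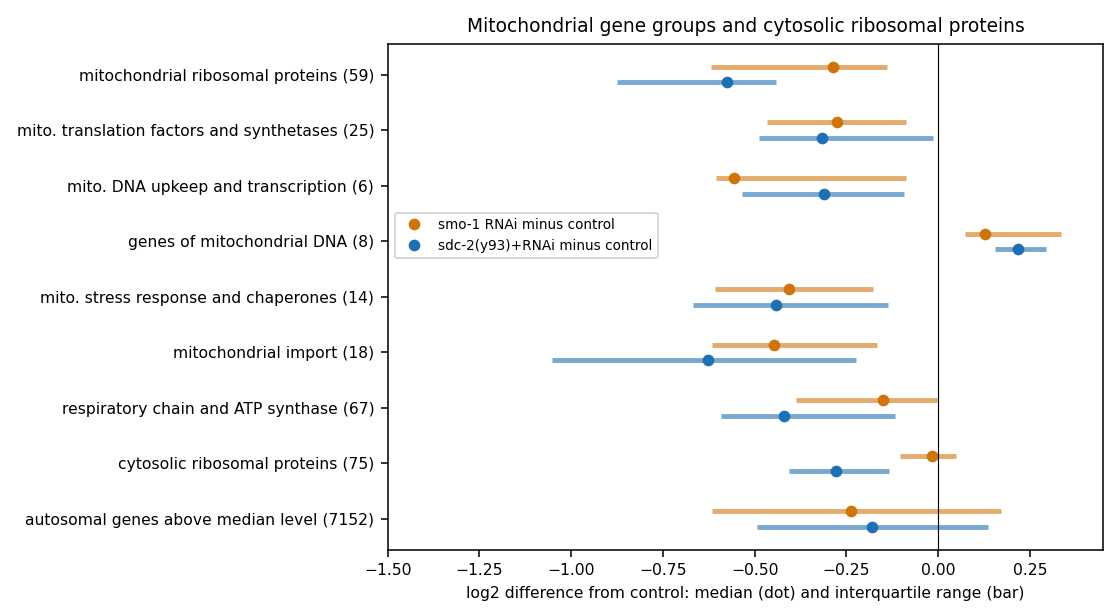
Median log2 difference from control (dot) and the interquartile range (bar) for mitochondrial gene groups, cytosolic ribosomal protein genes and well-expressed autosomal genes, with the number of genes in brackets, in smo-1 (orange) and sdc-2 (blue) embryos. Mitochondrial ribosomal protein genes and import genes have the lowest medians in sdc-2 embryos, -0.58 and -0.63, and the genes of mitochondrial DNA are the only group with medians above 0.

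Of 14 measured chaperone, protease and regulator genes of the mitochondrial stress response, of 16 listed, 7 fell and 1 rose in smo-1 embryos (median -0.41), and 8 fell and 2 rose in sdc-2 embryos (median -0.44). The chaperone gene hsp-6, whose rise marks the mitochondrial unfolded protein response in worms, was at -0.14 ± 0.09 and -0.03 ± 0.09, neither past the threshold. The chaperone gene hsp-60 was at -0.37 ± 0.17, which did not pass, in smo-1 embryos and fell by 0.72 ± 0.17 in sdc-2 embryos (limma adjusted p = 0.00869). The gene of the response's transcription factor, atfs-1, fell by 0.98 and 0.41, and the protease gene spg-7 by 1.28 and 1.04. The X-linked regulator gene dve-1 rose by 0.47 and 0.90.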

How the data were processed

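Embryo RNA of 9 samples was measured on Affymetrix C. elegans arrays. The deposited values are log2 levels per probe set, which the authors computed by RMA; the submitters' processing notes name Affymetrix Expression Console. Its version and options, and whether RMA ran on the 9 arrays at once, were not given in the sources used here. All 9 columns of values were used.

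Probe sets were named through GEO's platform annotation, updated to RefSeq symbols. Of 22625 probe sets 20766 carried 1 gene, 887 several and 895 were not listed, and 77 were controls. The brightest single-gene probe set per gene gave 17118 genes. They were fitted together on all 9 arrays by group, without covariates, with limma 3.58.1 in R 4.3.3 (lmFit, eBayes, 6 residual degrees of freedom). P-values are two-sided, adjusted by Benjamini-Hochberg across the 17118 genes, and called under 0.05. Errors are standard errors of the fit. The number of arrays limits the precision. The procedure was tested on simulated data.

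The members and gene lists were chosen with earlier results of these data known. Members were named by size of change (up to 6 rises and 6 falls per comparison with control, 4 each way in the direct one), by a shared family number, as mrps-5, by the smallest differences and by disagreement between probe sets. Up to 3 genes with the smallest adjusted p were open to naming in other lists. Replicate numbers were not used as pairs. Alternatives were another probe set choice, a level filter, centring, quantile normalization, the variance model, a threshold of 0.01, the replicate block, a fit to the 6 arrays compared, and omission of 1 array at a time.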

Additional observations from a re-analysis of the deposited data

Results flagged for a closer look

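The cre hybridisation control, which is added to the sample and is outside the comparisons above, read 7.87 higher (log2) on the 3 sdc-2(y93)+RNAi arrays than on the control arrays, and its level there lay far above that of the other 6 arrays. Its part in the members' differences was not tested, and the handling of these arrays and the group cannot be told apart.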

How the results depend on the processing

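The median of the members tested kept its sign in each comparison under every alternative run. These were 59 members, except for 56 among genes above the median level and 50 without probe sets that can bind related transcripts. In smo-1 RNAi embryos, leaving out probe sets that can bind related transcripts kept 50 members, 0 of them higher, with a median of -0.41. This setting removed mrps-11 and mrps-14, so their rises could not be retested in it. Members higher numbered 5 after quantile normalization, 4 with only the 6 arrays compared, and 8 with centring on well-expressed autosomal genes (median -0.087). Centring on all autosomal genes gave 40 members lower, 2 higher and a median of -0.42. The centring on well-expressed genes, added once the data had been seen, gave 1 member higher and a median of -0.31 in sdc-2(y93)+RNAi embryos. In the direct comparison members lower numbered 1 among genes above the median level, 8 with centring on autosomal genes (median 0.072), 4 after quantile normalization and 4 with centring on well-expressed autosomal genes, and the median was 0.19 without probe sets that can bind related transcripts. With each array left out in turn, smo-1 RNAi gave 24 to 29 lower, 2 to 3 higher and medians of -0.38 to -0.29, sdc-2(y93)+RNAi gave 37 to 48 lower and medians of -0.62 to -0.52, and the direct comparison gave 21 to 27 higher, 0 to 5 lower and medians of 0.21 to 0.32. Of the 31, 46 and 25 main calls, 24, 37 and 20 were made with each array left out and 19, 30 and 16 under every alternative. Calls that a setting could not test counted as not made. Without probe sets that can bind related transcripts only 29, 43 and 20 of the main calls were tested. With the replicate number as a block, 31 and 46 members were lower than control and 26 were higher and 1 lower in the direct comparison; same-numbered arrays' deviations correlated between -0.22 and 0.24, and 1 of 9 arrays correlated best with its own number.

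Signs turned for small differences. In smo-1 RNAi embryos, mrps-18B was at 0.043 after quantile normalization and between -0.14 and 0.037 with each array left out, the highest without smo-1 RNAi replicate 3. There mrpl-9 lay between -0.33 and 0.034, the highest without smo-1 RNAi replicate 1, mrps-34 was at -9e-04 with centring on autosomal genes, and mrpl-44 at 0.15 without probe sets that can bind related transcripts. With centring on well-expressed autosomal genes mrps-18B was at 0.15, and mrps-31, mrpl-9 and mrps-26 at 0.062, 0.059 and 0.051. In sdc-2(y93)+RNAi embryos that centring put mrps-34, mrps-31, mrpl-9 and mrps-26 at 0.16, 0.24, 0.17 and 0.19, and mrps-31 was at 0.047 with centring on autosomal genes. With each array left out mrps-34 lay between -0.18 and 0.012 and mrps-26 between -0.17 and 0.013, the highest without sdc-2(y93)+RNAi replicate 2, and mrpl-44 was at 0.015 without probe sets that can bind related transcripts. Beyond what fewer arrays or probe sets and the centring itself account for, the cause was not tested. Signal limits what can be read of mrps-31, mrps-26 and mrpl-45, which lay below the median level of all genes.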
